A study of Rattus norvegicus with 2 samples.

Results

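The nuclear-encoded genes of the mitochondrial respiratory chain and ATP synthase were examined in the hypothalamus of female rats before and at puberty. They were found by name, as every gene called Nduf followed by a, b, c, s or v, Sdha to Sdhd, Uqcr, Cox4 to Cox8 or Atp5 that had a transcript in the mRNA table. The name rule found 88 gene identifiers with 85 names among 22777 mRNA genes. Complex I had 35 of them, complex I assembly factors (Ndufaf genes) 6, complex II 4, complex III 6, complex IV 19 and complex V 18. Ndufa4 and its paralog Ndufa4l2 were placed with complex IV, as was Cox7a2l, a factor that joins complexes III and IV. Of the 88 genes, 75 encode structural subunits. FPKM (a count of fragments divided by transcript length and library size) was above 0 in at least 1 library for 86 genes, and 84 had at least 1 FPKM in both.

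The hypothalami came from female Sprague Dawley rats with no named allele in either group. Rats of both groups were killed under pentobarbital anesthesia, and no other agent is named for them. Prepubertal rats were 25 days old and pubertal rats, in their first estrus, 35 days old. The methods give 3 rats per stage, but the table holds a single column for each stage, and the sources used here do not say how the animals' RNA or reads were merged. No spread between animals can be given, so differences between the stages were not tested and are described as higher or lower in 1 library. Stage, age and library cannot be told apart. In bulk tissue, fewer cells of a type and less RNA per cell cannot be told apart either.

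Complex I takes electrons from NADH and complex II takes them from succinate. Both pass them through ubiquinone to complex III, and cytochrome c carries them on to complex IV, which reduces oxygen. Complexes I, III and IV pump protons, and complex V (ATP synthase) uses the gradient to make ATP. Complexes I, III, IV and V hold subunits from nuclear and from mitochondrial DNA, whereas complex II is wholly nuclear-encoded. Neurons depend strongly on this pathway.

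The low FPKM values of each library lay on steps of whole fragments, which gave the depth behind them. The scaling totals came to 20800000 fragments before puberty and 16200000 at puberty. Of the transcripts at 0.5 to 5 fragments, 96.3% of 3485 and 94.9% of 2418 were whole within 0.1, where an even spread gives 20%. Fragments derived this way gave each log2 ratio a 95% interval, which covers counting error only and is of the ratio without a pseudocount. The 10 hypothalamic peptide genes checked were all detected, and 9 were higher at puberty, with melanin-concentrating hormone (Pmch) at 1675 and 2723 FPKM. The 5 red blood cell genes were all higher at puberty (summed FPKM 6837 and 13083), as were the 4 microglial genes (106 and 134). The 5 neuronal genes were all lower (1984 and 1883). Oligodendrocyte genes summed to 11642 and 12673 FPKM, astrocyte genes to 748 and 749 and endothelial genes to 122 and 131. Each of these lists held genes of both directions. Of the oligodendrocyte genes 3 were higher and 2 lower, and of the astrocyte genes 3 were higher and 1 (Aqp4, 224 and 188 FPKM) lower. Of the endothelial genes 2 were higher, among them Slco1a4 (29.0 and 43.5 FPKM), and 2 lower. Pituitary genes summed to 32 and 44 FPKM, choroid plexus genes to 34 and 29 (Ttr was lower, the other 3 higher) and striated muscle genes to 10 and 8. Of the 6 pituitary genes 5 were higher and 1 (Lhb, 1.44 and 1.29 FPKM) lower. Prl, the defining lactotroph gene of the pituitary list, was listed at 0 before puberty and at 3.40 FPKM at puberty, and Ckm of the muscle list at 0.582 and 0. Gh1 of the pituitary list was at 0.872 and 4.09 FPKM on 10 and 37 fragments, with an interval of 1.22 to 3.24. The part of these markers in the differences below was not tested.

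Most respiratory chain genes were slightly higher at puberty, and few differed by much. Of the 86 genes above 0, 62 were higher and 24 lower, so 72.1% were higher against 49.0% of the 18052 mRNA genes above 0. The median log2 ratio, log2((pubertal FPKM + 1)/(prepubertal FPKM + 1)), was 0.12 with quartiles of -0.04 and 0.18. Only 7 genes were at least 1.2-fold higher and 5 at least 1.2-fold lower, where 10.9% and 14.2% of all mRNA genes were. At least 1.5-fold higher was 1 gene and at least 1.5-fold lower were 0, against 1.81% and 2.34% of all. That 1 gene is Atp5hl1, listed at 0 and at 0.537 FPKM, which passes only through the added 1 FPKM. Among the 8237 genes of at least 10 FPKM on average, 52.9% were higher and 47.1% lower, 10.1% and 11.6% were at least 1.2-fold higher and lower, and 1.19% and 1.47% at least 1.5-fold. The summed FPKM of the 88 respiratory chain genes was 41957 before puberty and 45075 at puberty, which was 5.43% and 5.60% of the summed FPKM of mRNA genes. Lower calls depend on the scaling: with the libraries set to equal Actb, 19 of the 24 lower genes turned higher, and only both Ndufs5 identifiers, Cox4i2, Cox8b and the second Ndufa13 identifier stayed lower. With equal medians 2 of the 24 turned.

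Other abundant genes were mostly higher too. Among 928 other genes with a mean of at least 100 FPKM and a length within the outer range of the respiratory chain genes, 70.7% were higher and the median log2 ratio was 0.10. Their median length was 1170 nt against 630 nt. Of the 928, 170 were at least 1.2-fold higher and 52 at least 1.2-fold lower. Among genes of at least 100 FPKM and up to 1000 nt, 78.7% of 47 respiratory chain genes were higher with a median of 0.13, and 2 were at least 1.2-fold higher and 1 lower. Of 383 other genes of this kind 78.3% were higher with a median of 0.18, and 135 were at least 1.2-fold higher and 14 lower. Of these 383, 72 were cytosolic ribosomal protein genes. Without them 74.0% of 311 were higher with a median of 0.13, and 79 were at least 1.2-fold higher and 12 lower. With its low genes included, the respiratory chain had 56 genes up to 1000 nt, of which 67.9% were higher with a median of 0.10, 3 at least 1.2-fold higher and 5 lower.

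The counting interval lay above 0 for 48 of 84 respiratory chain genes (57.1%) and below 0 for 12 (14.3%). It lay above 0 for 20.0% and below 0 for 23.9% of 13735 mRNA genes of at least 1 FPKM on average. For 926 of the abundant genes in the outer length range the shares were 55.4% and 18.0%. Up to 1000 nt they were 53.6% and 16.1% for 56 respiratory chain genes of any level and 61.5% and 11.0% for 382 other abundant genes. Over 1000 nt they were 64.3% and 10.7% for 28 respiratory chain genes of any level and 46.5% and 30.3% for 699 other abundant genes. The 699 have no upper length limit and reach longer transcripts, so the sets over 1000 nt are unlike in length and in level.

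**Figure D1:**
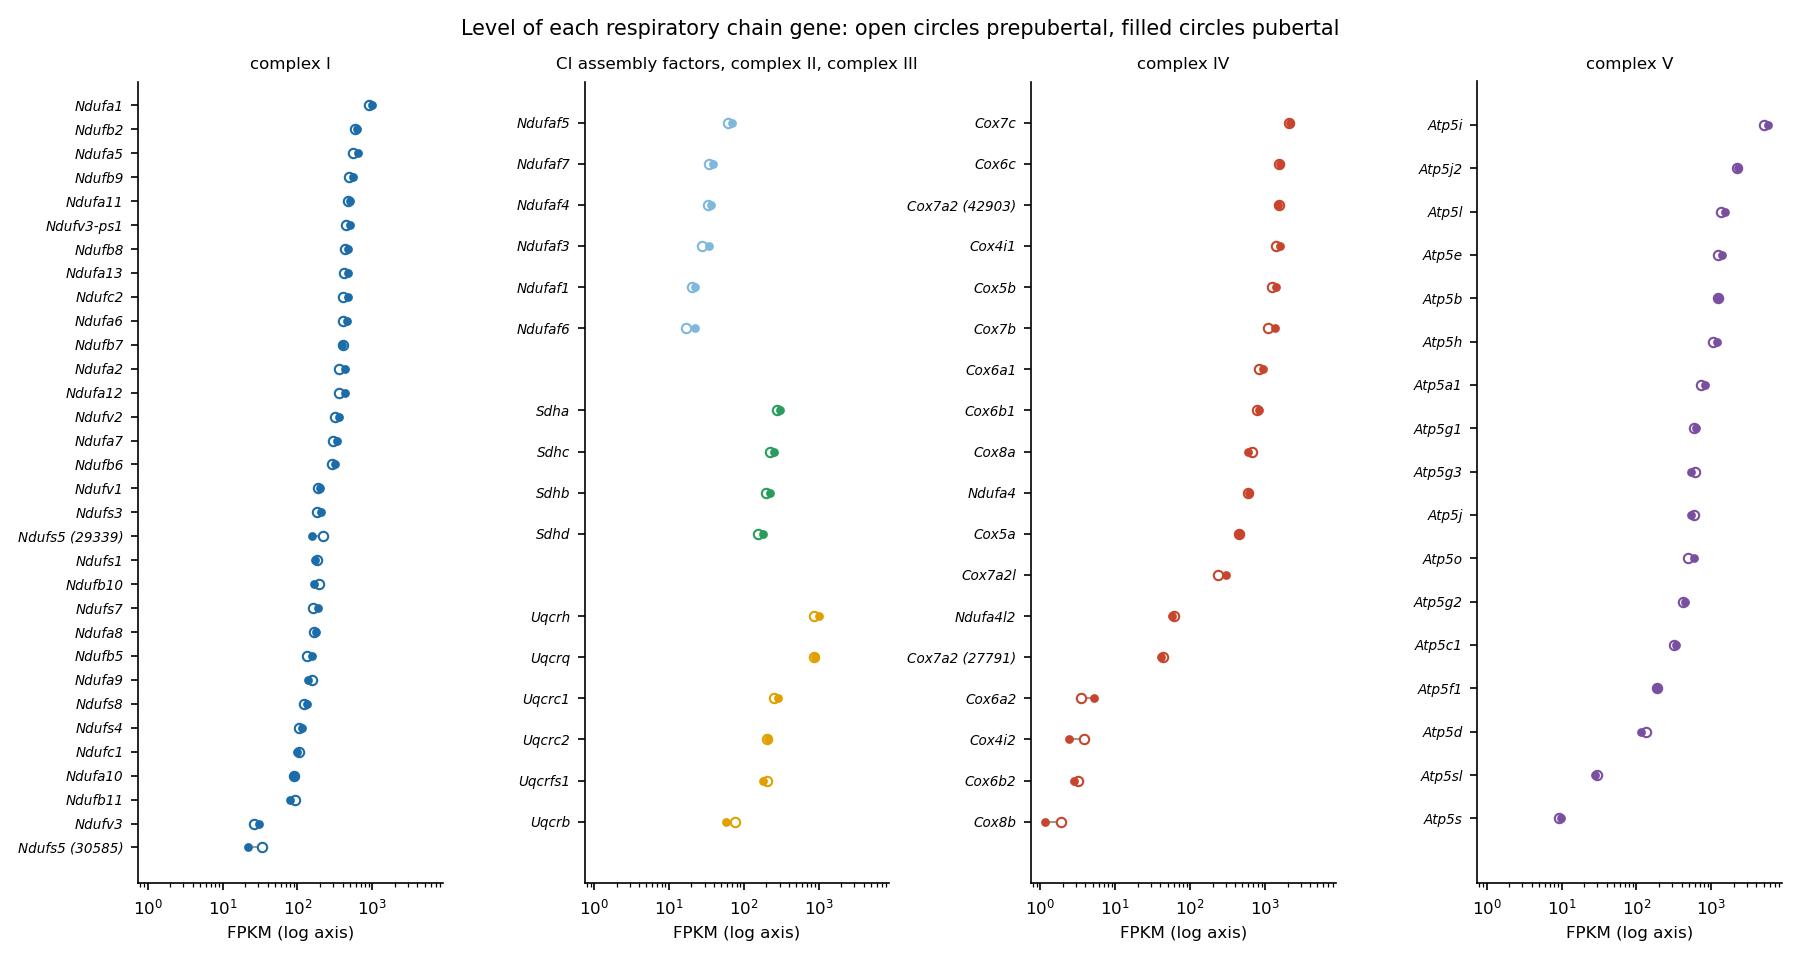
FPKM (log axis) of 83 of the 84 genes with at least 1 FPKM in both libraries, ordered by mean level within each complex, with prepubertal values as open and pubertal values as filled circles. Numbers in brackets are the last digits of the identifiers of genes that share a name. Levels run from Cox8b (1.89 and 1.15 FPKM) to Atp5i (5102 and 5729 FPKM), and the circles of most genes nearly touch.

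The promoters of these genes were searched for 3 motifs of factors known to act on respiratory chain genes, nuclear respiratory factor 1 (NRF1), the ETS factor GABPA and YY1. The RefSeq promoter table (GRCr8) held 300 bases, 250 before and 50 after the start, for 73 of the 85 names. The NRF1 core GCGCANGCG was found in 18 of 73 promoters (24.7%) on either strand, against 8.05% of 19005 promoters of all protein-coding genes. The ETS core CCGGAAG was found in 21 (28.8%), against 11.2% of all. The YY1 core AAGATGGC was found in 14 (19.2%), against 3.92%. At least 1 of the 3 was present in 43 (58.9%) and in 20.3% of all promoters. A palindromic NRF1 site counts on both strands, so overlapping matches in 1 promoter can be 1 site. Of the 14 YY1 matches, 12 began within the last 60 bases of the window, that is from 10 bases before the start onward, and 12 read along the gene's strand. Among all promoters 57.2% of the 760 YY1 matches began there and 68.7% read along the gene's strand. A match is a run of letters and says nothing of binding.

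The 6 promoters below are those of complex II, which show each motif, of Cox4i1, the predominant Cox4 gene, and of Ndufs5, which had the lowest log2 ratios on the FPKM + 1 scale among genes of its complex. The Ndufs5 promoter was matched by name, so it may belong to either of the 2 Ndufs5 identifiers. They are written 5′ to 3′ along the gene's strand, with the matches in capitals. Sdha lies at chr1:30764303-30764602 (plus strand) and has 3 NRF1 matches. Sdhb at chr5:158547684-158547983 (plus) has 1 ETS match, Sdhc at chr13:86097976-86098275 (minus) 1 YY1 match and Sdhd at chr8:59850592-59850891 (minus) 2 ETS matches. Cox4i1 at chr19:65630133-65630432 (plus) has 2 ETS matches, and Ndufs5 at chr5:141264353-141264652 (minus) 1 NRF1 match.
Sdha: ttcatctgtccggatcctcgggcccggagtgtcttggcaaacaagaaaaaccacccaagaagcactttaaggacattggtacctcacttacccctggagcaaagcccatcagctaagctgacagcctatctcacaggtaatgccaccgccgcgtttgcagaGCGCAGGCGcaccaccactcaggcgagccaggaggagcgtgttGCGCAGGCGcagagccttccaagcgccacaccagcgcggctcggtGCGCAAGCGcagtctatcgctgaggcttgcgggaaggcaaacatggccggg
Sdhb: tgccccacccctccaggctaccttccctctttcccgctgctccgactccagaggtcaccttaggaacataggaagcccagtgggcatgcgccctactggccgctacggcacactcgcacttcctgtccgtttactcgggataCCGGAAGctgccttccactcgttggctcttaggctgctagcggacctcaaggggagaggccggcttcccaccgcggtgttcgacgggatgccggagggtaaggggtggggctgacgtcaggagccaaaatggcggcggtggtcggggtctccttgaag
Sdhc: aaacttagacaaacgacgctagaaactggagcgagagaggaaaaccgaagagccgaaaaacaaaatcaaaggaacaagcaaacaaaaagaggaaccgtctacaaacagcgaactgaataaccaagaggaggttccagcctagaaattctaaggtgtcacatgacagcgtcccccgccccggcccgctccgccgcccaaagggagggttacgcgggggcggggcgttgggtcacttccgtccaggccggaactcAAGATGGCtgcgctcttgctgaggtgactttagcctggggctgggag
Sdhd: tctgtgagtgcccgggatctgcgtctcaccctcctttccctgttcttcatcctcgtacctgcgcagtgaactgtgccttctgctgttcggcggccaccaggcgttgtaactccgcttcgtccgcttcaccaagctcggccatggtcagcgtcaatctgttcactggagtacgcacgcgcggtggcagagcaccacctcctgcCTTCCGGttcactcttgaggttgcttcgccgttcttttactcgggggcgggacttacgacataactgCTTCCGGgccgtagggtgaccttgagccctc
Cox4i1: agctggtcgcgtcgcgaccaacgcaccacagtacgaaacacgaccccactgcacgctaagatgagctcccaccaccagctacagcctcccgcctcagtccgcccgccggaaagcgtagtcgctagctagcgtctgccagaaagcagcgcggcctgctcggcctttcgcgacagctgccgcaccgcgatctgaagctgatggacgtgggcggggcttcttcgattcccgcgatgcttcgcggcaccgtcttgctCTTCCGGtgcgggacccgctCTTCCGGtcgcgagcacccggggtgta
Ndufs5: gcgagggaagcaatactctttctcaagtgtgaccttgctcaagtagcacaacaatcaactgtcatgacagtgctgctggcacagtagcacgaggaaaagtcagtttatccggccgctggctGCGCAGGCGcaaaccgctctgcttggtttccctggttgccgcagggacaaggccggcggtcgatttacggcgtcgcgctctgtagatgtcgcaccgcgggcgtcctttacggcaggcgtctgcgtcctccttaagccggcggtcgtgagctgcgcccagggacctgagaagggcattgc

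Members with and without a match had similar ratios. The median log2 ratio was 0.16 in the 18 genes with an NRF1 match (15 higher) and 0.12 in the 53 above 0 without one (38 higher). It was 0.16 with (16 of 21 higher) and 0.11 without an ETS match (37 of 50), and 0.15 with (10 of 14 higher) and 0.11 without a YY1 match (43 of 57). By complex, an NRF1 match was found in 7 of 29 promoters of complex I, 2 of 5 of its assembly factors, 1 of 4 of complex II, 1 of 5 of complex III, 1 of 15 of complex IV and 6 of 15 of complex V. The ETS core was found in 7, 1, 2, 3, 4 and 4 of the same promoters in the same order, and the YY1 core in 6, 0, 1, 1, 2 and 4.

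In complex I, 24 genes were higher and 10 lower, with a median log2 ratio of 0.13. The core subunits, which carry the flavin and the iron-sulfur clusters and form the ubiquinone site, were mostly higher. Ndufv1, which binds NADH and flavin, was at 186 FPKM before and 203 at puberty, a log2 ratio of 0.12 with a counting interval of 0.06 to 0.18. Ndufv2, its iron-sulfur partner, was at 320 and 359 FPKM. Ndufs7, which carries the last iron-sulfur cluster of the chain to ubiquinone, was at 160 and 186 FPKM (0.22, interval 0.12 to 0.32). Ndufs3 (181 and 205) and Ndufs8 (123 and 134) were higher too. Ndufs1, which holds iron-sulfur clusters on the NADH side, was the exception, at 185 and 174 FPKM, with 9276 and 6852 fragments and an interval of -0.13 to -0.04. Of the core subunits named here, Ndufs1 alone had an interval below 0.

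The 26 accessory subunits of complex I, which surround the core, spread more widely, with 17 higher, 9 lower and log2 ratios from -0.57 to 0.28. Ndufa1, a small membrane-arm subunit, had the highest level of the complex at 912 and 998 FPKM. Ndufa12, a subunit of the matrix arm, had the largest positive ratio, with 355 and 433 FPKM (0.28, interval 0.20 to 0.37). Ndufs4, an accessory subunit whose loss causes Leigh-like disease, was at 105 and 114 FPKM. The largest negative ratios belonged to Ndufs5, an accessory subunit on the intermembrane side, under both of its identifiers. One was at 222 FPKM before and 158 at puberty (-0.49, interval -0.64 to -0.34), and the other at 33.4 and 22.1 FPKM (-0.57). Reads of such copies may be split between them, so each level is uncertain, but both were lower. Ndufb10 (193 and 165 FPKM), Ndufb11 (92.1 and 80.4) and Ndufa9 (156 and 138) also had intervals below 0, whereas Ndufa10 was almost level at 91.3 and 90.8.

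Not all names of complex I stand for expressed subunits. The pseudogene Ndufv3-ps1 was listed at 441 and 501 FPKM while Ndufv3 itself was at 26.6 and 30.9, with similar derived fragments of 679 and 706 before puberty, because the entry of the pseudogene is 327 nt and that of Ndufv3 1536 nt long. A second Ndufa13 identifier was listed at 0.133 and 0 FPKM, less than 1 fragment, while the first was at 418 and 471. Ndufb4l1 was listed at 0 in both libraries.

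All 6 complex I assembly factors with an Ndufaf name were higher at puberty, at levels of 17.0 to 60.8 FPKM before puberty. Their median log2 ratio was 0.18 and their summed FPKM 194 and 223. Ndufaf6, which aids the making of a mitochondrially encoded subunit, was at 17.0 and 22.1 FPKM (0.36, interval 0.14 to 0.62 on 274 and 280 fragments). Ndufaf3 was at 27.9 and 34.3 FPKM (0.29), and Ndufaf5, a hydroxylase acting on Ndufs7, was the highest of them at 60.8 and 69.3. Ndufaf7, a methyltransferase, was at 34.5 and 38.9 FPKM, Ndufaf4 at 33.4 and 36.2 and Ndufaf1 at 20.3 and 22.5. The interval of Ndufaf1 held 0 and that of Ndufaf4 reached down to 0.00.

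Complex II, the succinate dehydrogenase shared with the TCA cycle, was higher in all 4 subunits. Sdha, the flavoprotein, was at 279 FPKM before puberty and 301 at puberty (0.11, interval 0.07 to 0.15). Sdhb, the iron-sulfur subunit, was at 195 and 222 FPKM (0.19, interval 0.11 to 0.27). The membrane anchors Sdhc (221 and 251) and Sdhd (155 and 179) had ratios of 0.19 and 0.21. The 4 levels lay close together in both libraries and kept the order Sdha, Sdhc, Sdhb, Sdhd. All 4 counting intervals lay above 0. The printed promoters of these genes carry different motifs, NRF1 in Sdha, ETS in Sdhb and Sdhd and YY1 in Sdhc.

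Complex III was mixed, with 4 genes higher, 2 lower and a median of 0.05. The core proteins Uqcrc1 (251 and 282 FPKM) and Uqcrc2 (202 and 213) were higher, with ratios of 0.16 and 0.07. Uqcrfs1, the Rieske iron-sulfur protein that passes electrons on, was lower at 203 and 181 FPKM (-0.16, interval -0.23 to -0.10). Uqcrh, the hinge protein, had the highest level beside Uqcrq and the largest positive ratio, at 861 and 1001 FPKM (0.22), while Uqcrq was at 861 and 881. Uqcrb, a ubiquinone-binding subunit, was lower at 75.4 and 58.7 FPKM (-0.36, interval -0.61 to -0.11 on 342 and 213 fragments). Uqcrb, the lowest gene of the complex, and Uqcrh thus went in opposite directions.

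In complex IV, 10 genes were higher and 8 lower, with a median of 0.04. Cox7c, a small membrane subunit, had the highest level, 2073 and 2124 FPKM, and a log2 ratio of 0.04. Cox6c (1536 and 1604 FPKM) and Cox5a (447 and 444) were almost level, and Cox5b (1258 and 1407) was higher at 0.16. Cox7b was at 1089 and 1342 FPKM (0.30, interval 0.24 to 0.36), and Cox7a2l at 235 and 300 FPKM (0.36, interval 0.29 to 0.42). Cox8a was the only one of the complex with an interval below 0, at 664 and 585 FPKM (-0.18). Ndufa4, once assigned to complex I, was at 593 and 612 FPKM. The 2 Cox7a2 identifiers were at 1541 and 1489 and at 43.9 and 40.5 FPKM, both slightly lower.

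Subunits with tissue-specific forms were present almost wholly as the general form in both libraries. Cox4i1 was at 1382 and 1576 FPKM and made up 99.7% and 99.8% of the Cox4 pair. Cox4i2, the form known from lung and hypoxia, was at 3.87 and 2.45 FPKM on 36 and 18 fragments. Its log2 ratio of -0.50 was the lowest of the complex on the FPKM + 1 scale, and its counting interval of -1.48 to 0.16 held 0. Without the pseudocount it was -0.66, and that of Cox8b was lower at -0.71. Cox6a1 held 99.6% and 99.4% of its pair, with the muscle form Cox6a2 at 3.53 and 5.23 FPKM. The ratio of Cox6a2, 0.46, was the largest of the complex and rested on 16 and 19 fragments, with an interval of -0.39 to 1.53. Cox6b1 (785 and 839 FPKM) held 99.6% and 99.7% beside the testis form Cox6b2 (3.16 and 2.82). Cox8a held 99.7% and 99.8%, with Cox8b at 1.89 and 1.15 FPKM and Cox8c listed at 0 in both. Ndufa4 held 90.8% and 91.5% of its pair, but the 60.1 and 56.6 FPKM of Ndufa4l2, a paralog known from hypoxia, rested on 21 and 17 fragments of a 249 nt entry. Of the 4 forms below 10 FPKM that had fragments in both libraries, none had an interval that left out 0.

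Complex V had 14 genes higher and 4 lower, with a median of 0.08. Its F1 part holds the catalytic head (alpha and beta) and the central stalk (gamma, delta and epsilon). Atp5a1 (subunit alpha) was at 728 and 812 FPKM (0.16, interval 0.13 to 0.18) and Atp5b (beta) was almost level at 1221 and 1236 (0.02, interval 0.00 to 0.04). Atp5c1 (gamma) was at 317 and 336 FPKM and Atp5e (epsilon) at 1231 and 1368. Atp5d (delta) was lower, at 136 and 116 FPKM (-0.22, interval -0.32 to -0.12). Subunits of the F1 part thus went in different directions, with the lower one in the central stalk.

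In the peripheral stalk and the membrane part, Atp5o, which joins the head to this stalk, had the largest positive ratio of the complex at 1 FPKM or more, at 495 and 586 FPKM (0.24, interval 0.19 to 0.30). Atp5h of the same stalk was at 1063 and 1198 FPKM (0.17), and Atp5j, also a stalk subunit, was lower at 580 and 532 (-0.12). Atp5i, a small subunit at the dimer interface, had the highest level of all 88 genes, 5102 and 5729 FPKM, with a ratio of 0.17. Subunit c of the rotor ring is encoded by 3 genes that give the same mature protein. Atp5g1 made up 36.7% of their sum before and 38.7% at puberty, Atp5g2 25.6% and 27.9% and Atp5g3 37.7% and 33.4%. Atp5g3 was at 611 and 535 FPKM (-0.19, interval -0.25 to -0.13), while Atp5g1 and Atp5g2 were slightly higher (0.06 and 0.11), and the sum was 1622 and 1604 FPKM. By FPKM the highest of the 3 was Atp5g3 before and Atp5g1 at puberty, but by fragments Atp5g3 was the highest in both libraries (5487 and 3799, against 3986 and 3300 for Atp5g1).

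Atp5f1 (subunit b) had 4 transcripts, the most of any gene in the pathway. Its main transcript of 1206 nt was at 167 and 184 FPKM, while 1 of 483 nt was at 16.0 and 2.11, so that the gene sum stayed at 186 and 189. Atp5hl1 was listed at 0 before and 0.537 FPKM at puberty, about 3 fragments, which is what a count of 0 allows, and no fold was given. Atp5s (9.28 and 9.79 FPKM) and Atp5sl (29.8 and 27.7), which share the name stem but are no structural subunits, were the other low ones.

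**Figure D2:**
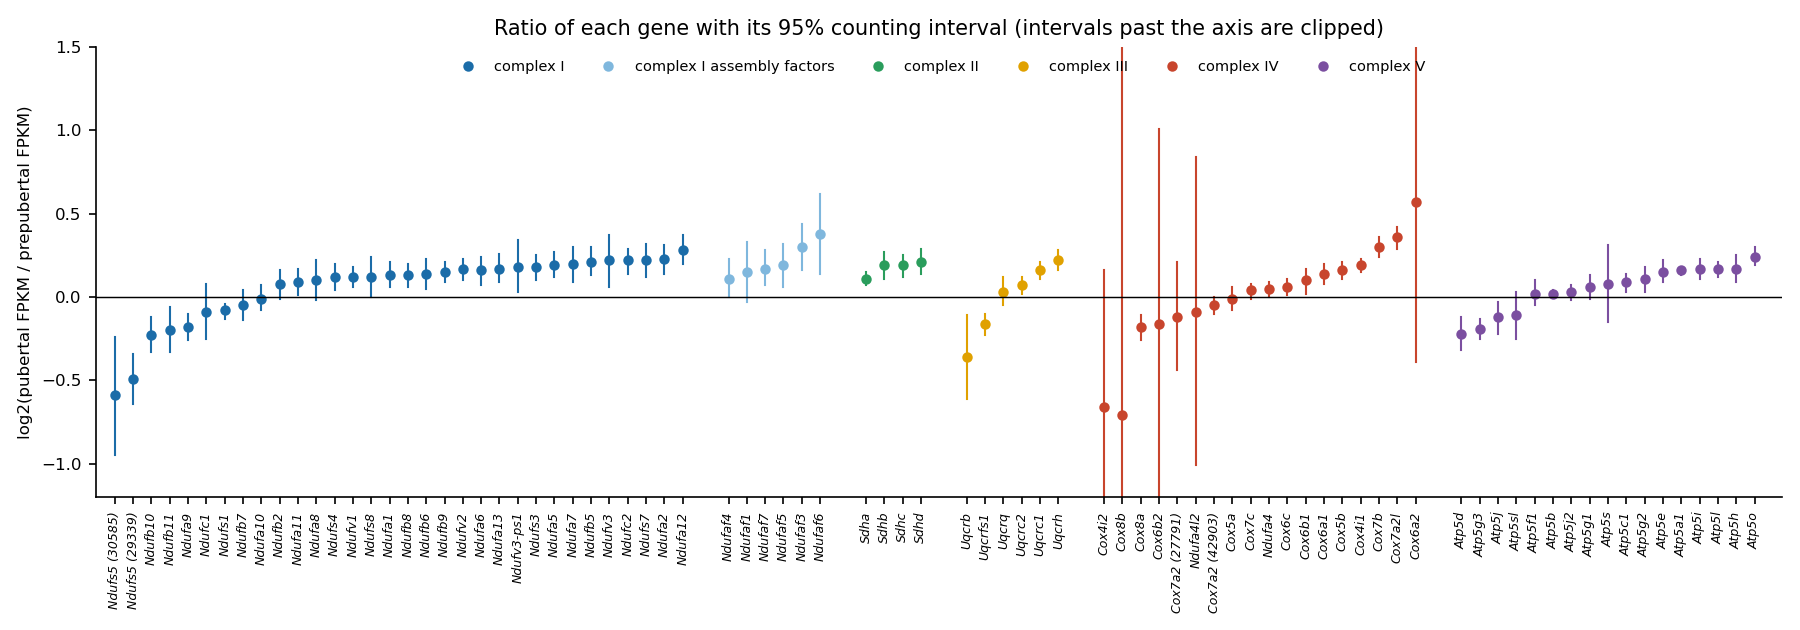
Log2 ratio of pubertal to prepubertal FPKM (no pseudocount) of the same 83 genes, grouped by complex and sorted, with lines for the 95% counting interval, which does not include spread between animals. All 4 points of complex II lie above 0, and the longest lines belong to the isoforms of complex IV with few fragments.

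Transcript length bears on these values in several ways. Over all mRNA genes of at least 1 FPKM on average, shorter transcripts had higher ratios: the median log2 ratio fell from 0.08 in the shortest of 10 length classes (168 to 769 nt) to -0.13 in the longest (4433 to 17543 nt). Across 13804 genes Spearman's rho of ratio and length was -0.25, and across 1112 other genes of at least 100 FPKM it was -0.32. Across 84 respiratory chain genes it was 0.11, but these lie between 249 and 2674 nt and the other sets reach longer transcripts, so the values of rho cover unlike ranges of length. The genes share 2 libraries, so the values are descriptions. In the shortest class 35 of 51 respiratory chain genes were higher and in the second class 10 of 12, where 59.2% and 63.3% of all genes in these classes were. In the third class 2 of 4 were, with a median of -0.07, against 59.5% and 0.05 of all genes. In the fourth class 7 of 7 were, with a median of 0.15, against 56.6% and 0.04. In the fifth, sixth and seventh classes 4 of 6, 2 of 2 and 1 of 2 were, against 55.2%, 51.3% and 45.1% of all genes.

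Short and long respiratory chain genes had similar medians. The 56 genes of up to 1000 nt had a median of 0.10 (38 higher, 18 lower) and the 28 longer ones a median of 0.13 (23 higher, 5 lower). The 47 genes of up to 1000 nt that had at least 100 FPKM on average had a median of 0.13, with 37 higher and 10 lower. For other genes of at least 100 FPKM the medians were 0.18 up to 1000 nt (0.13 without cytosolic ribosomal protein genes) and 0.04 above it. Those above 1000 nt have no upper length limit and reach longer transcripts than the 28 respiratory chain genes, which are of any level. After the median of each length class was taken off, the median of all respiratory chain genes was 0.05 and 53 were higher. The 928 other genes of at least 100 FPKM in the outer length range had the same centred median, 0.05, with 565 higher. By complex, the centred median was 0.06 in complex I, 0.15 in the assembly factors, 0.11 in complex II, 0.00 in complex III, -0.04 in complex IV and 0.02 in complex V. All 6 assembly factors (median length 1567 nt) and all 4 subunits of complex II (1184 nt) stayed above 0, whereas in complex IV the direction of the median turned.

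**Figure D3:**
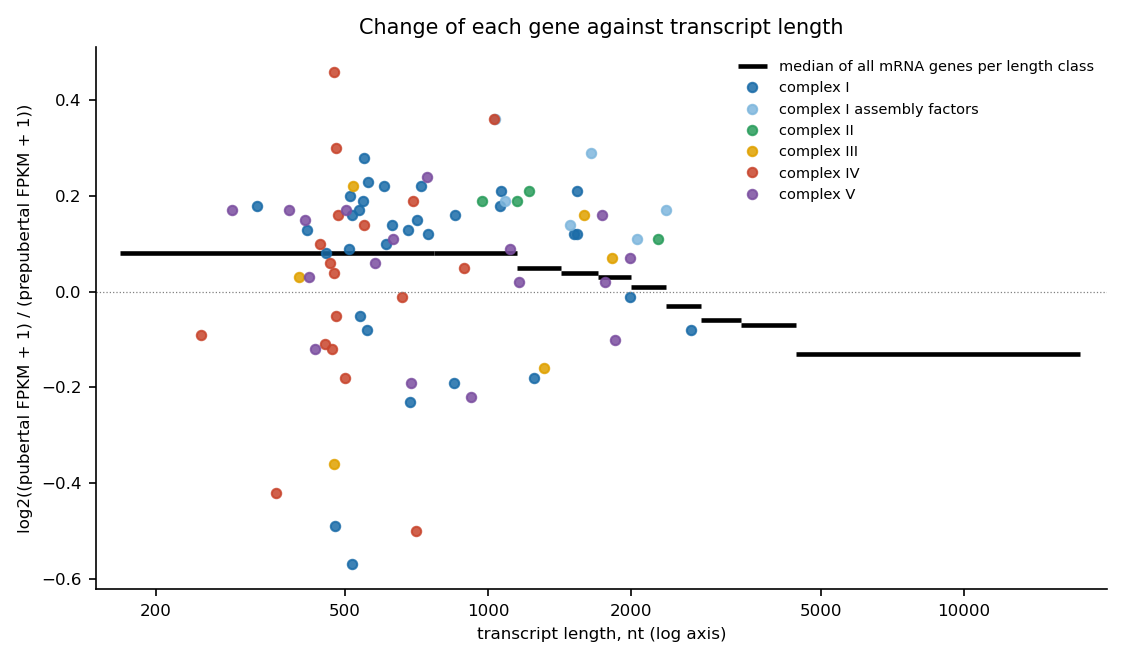
Log2 ratio on the FPKM + 1 scale against transcript length (log axis) for 83 of the 84 genes, coloured by complex, with black bars for the median of all mRNA genes in each of 10 length classes. The bars step down from 0.08 to -0.13, and the coloured points lie between 249 and 2674 nt.

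Levels per length and fragments gave different orders. Atp5i ranked 1 by FPKM but 24 by fragments, since its entry is 289 nt long and 5102 FPKM came from 4476 fragments. Atp5b, of 1759 nt, ranked 10 by FPKM and 1 by fragments, with 38087 and 30207. Level and length were inversely related across the 84 genes (Spearman's rho -0.43). By FPKM, complex V made up 38.8% of the summed level before puberty and 38.9% at puberty, complex IV 29.9% and 29.6%, complex I 22.9% and 23.1%, complex III 5.85% and 5.80%, complex II 2.02% and 2.11% and the assembly factors 0.462% and 0.495%. The shares of the complexes were thus nearly the same in both libraries. By fragments, complex II made up 6.53% and 6.73% and complex IV 22.1% and 22.4%.

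**Figure D4:**
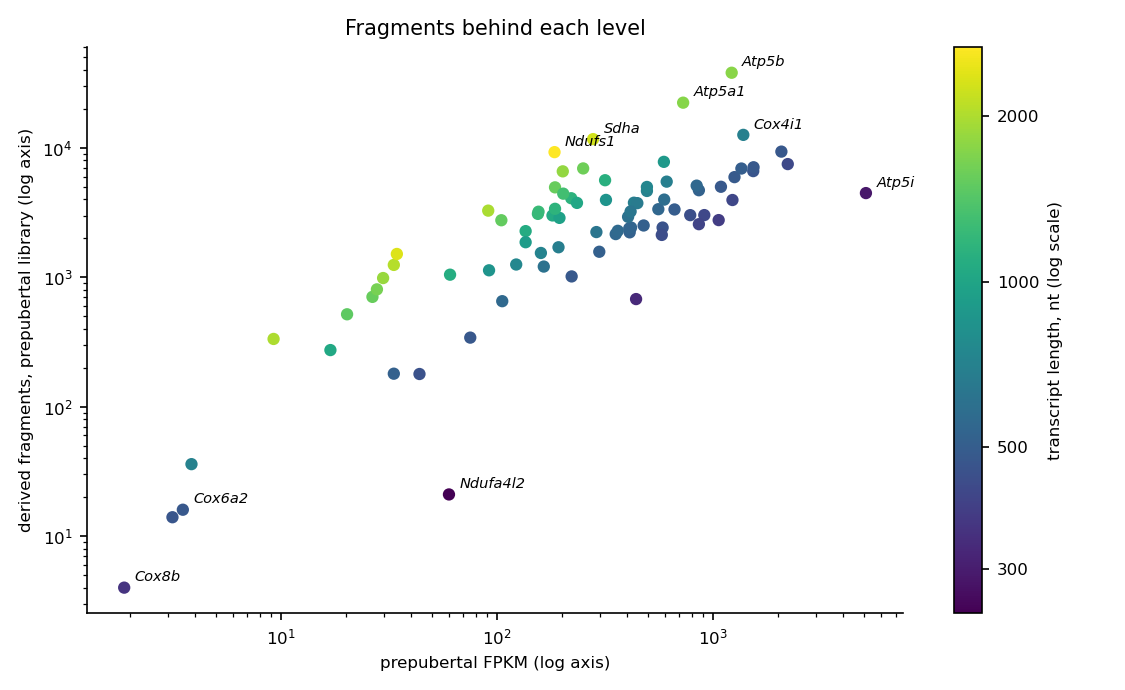
Derived fragments against FPKM in the prepubertal library (both log axes) for 83 of the 84 genes, coloured by transcript length. Ndufa4l2 has 21 fragments at 60.1 FPKM, while Atp5b has 38087 at 1221 FPKM.

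The rest of the pathway did not go one way. Of the 13 mitochondrially encoded genes, 3 were higher and 10 lower, with a median of -0.13 on entries that overlap or adjoin on 1 genome. Mt-co1, the catalytic subunit of complex IV, was level at 12282 and 12281 FPKM. Mt-cyb of complex III was lower at 433 and 336 FPKM (-0.37), and Mt-atp8 of complex V at 24106 and 16762 (-0.52) on an entry of 204 nt. Mt-nd6 was slightly higher at 441 and 473 FPKM (0.10). The nuclear subunits of complex IV, with a median of 0.04, stood beside Mt-co2 (4590 and 3983 FPKM) and Mt-co3 (3491 and 3000), both lower.

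Cytochrome c (Cycs) was level at 436 and 440 FPKM, with a short second entry at 11.4 and 10.5 (-0.11), and Cyc1, the heme subunit of complex III, was at 138 and 143 (0.05). The ATP synthase inhibitor Atpif1 was higher at 778 and 923 FPKM (0.25), as were Usmg5 and Atpaf2, and Atpaf1 was at 14.9 and 13.6 (-0.12). Of 28 assembly factors of other names, 18 were higher and 10 lower, with a median of 0.04. Ecsit, a complex I factor, was at 29.7 and 37.8 FPKM (0.34), and the further complex I factors of the list went both ways. Tmem126b was at 63.5 and 73.0 FPKM (0.20, interval 0.05 to 0.35), Nubpl at 14.0 and 15.4 (0.13, interval -0.12 to 0.39) and Tmem126a at 14.6 in both (0.00). Timmdc1 (32.5 and 29.4, -0.14), Acad9 (36.1 and 34.4, -0.07) and Foxred1 (18.2 and 17.6, -0.05) were lower, each with an interval that held 0. The largest negative ratio was that of Cox11, a copper chaperone of complex IV, at 15.8 and 12.8 FPKM (-0.28).

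The TCA cycle, which feeds the chain, had 6 of 15 genes higher and 9 lower, with a median of -0.14. Ogdh, the first subunit of the oxoglutarate dehydrogenase complex, was at 48.3 and 26.4 FPKM (-0.85), the largest difference of the list, and Idh3g at 122 and 144 (0.24). Complex II, which belongs to the cycle too, stood with the higher ones. Of 12 regulators of mitochondrial biogenesis 4 were higher and 8 lower, with a median of -0.05. Esrra was at 29.6 and 33.6 FPKM (0.18) and Gabpb1, a partner of the ETS factor GABPA, at 7.98 and 6.34 (-0.29). Nrf1 was at 8.19 and 9.13 FPKM, Gabpa at 7.83 and 7.75 and Yy1 at 18.7 and 19.2, and the counting intervals of all 3 held 0.

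Cytosolic ribosomal protein genes, also short and abundant, had higher ratios. Of 95 above 0, 91.6% were higher with a median of 0.36. Mitochondrial ribosomal protein genes, longer and less abundant than the respiratory chain (median 987 nt and 37.8 FPKM before puberty), were higher in 83.3% of 78 with a median of 0.15, near the 0.12 of the respiratory chain. After length centring the medians of cytosolic ribosomal, mitochondrial ribosomal and respiratory chain genes were 0.28, 0.08 and 0.05.

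**Figure D5:**
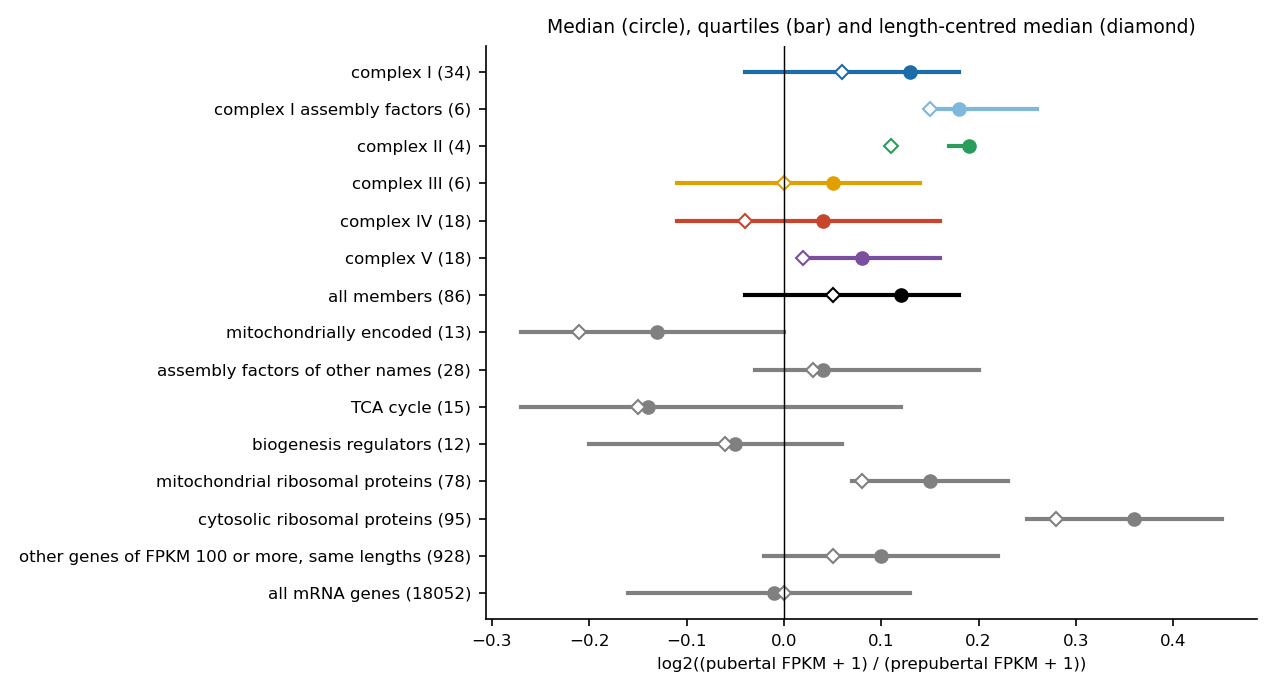
Median (circles), quartiles (bars) and length-centred median (diamonds) of the log2 ratio on the FPKM + 1 scale for each complex and the groups compared, with the number of genes above 0 in brackets. Complex II and the assembly factors lie to the right of 0 by either measure, complex IV changes side with length centring, and the mitochondrially encoded genes lie to the left.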

How the data were processed

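RNA of rat hypothalamus was sequenced at 2 stages. After ribosomal RNA removal and stranded paired-end sequencing, the authors aligned reads with TopHat and estimated the deposited FPKM with Cuffdiff 2.1.1, already scaled for depth and transcript length. Transcript lengths were taken from the deposited tables. The submitters' notes name Rnor_5.0 and the methods a later annotation, so no coordinates of the files were used. The authors' fold changes, p-values and q-values and the lncRNA tables were not used.

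FPKM were summed per gene identifier, and log2 ratios had a pseudocount of 1. Fragments were derived from the spacing of low FPKM, with an effective length of the transcript length minus 257 nt (prepubertal) or 251 nt (pubertal) from 500 nt on, an empirical curve below, and none under 240 nt. These steps give relative depth and were tested on simulated data. Counting intervals use a normal approximation on the log scale. Length classes hold mRNA genes of at least 1 FPKM on average.

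The values of 1 member are not reported here, although it enters sums, counts and medians. No test between stages was made, as each stage has 1 column. Members and lists were chosen with earlier results of these data known. Genes named were, per complex, the highest level and largest difference either way with at least 1 FPKM, complex II, isoform pairs, catalytic subunits, genes at 0 and the extremes of the other lists. Genes named beyond these were chosen after their values were seen, and so were the core and F1 subgroups. Alternatives were a pseudocount of 0.1, an FPKM minimum, the highest transcript, scaling to equal medians or equal Actb, length centring, 1 identifier per name, structural subunits, other length splits and fragments. Python 3.11.15 was used with pandas 2.3.3, numpy 2.4.6, matplotlib 3.10.9 and scipy 1.17.1.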

Additional observations from a re-analysis of the deposited data

How the results depend on the processing

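The direction of the overall median did not change under any alternative run, but its size depended on the scaling. Actb, at 763 and 576 FPKM, is itself lower at puberty, and equal Actb (a factor of 1.32, a shift of 0.41 that is smaller for genes near 0 FPKM) gave medians of 0.52 for all respiratory chain genes, 0.53 in complex I, 0.58 in its assembly factors, 0.59 in complex II, 0.46 in complex III, 0.45 in complex IV and 0.48 in complex V. It left 5 genes lower, 72 at least 1.2-fold higher and 0 lower, and 22 at least 1.5-fold higher, and it turned 19 of the 24 lower genes higher, among them Uqcrb (0.04), Atp5d (0.18), Atp5g3 (0.21), Cox8a (0.22), Uqcrfs1 (0.24) and Ndufs1 (0.32), as well as Cox11 (0.10), Gabpb1 (0.06) and Atpaf1 (0.26) of the other lists. Length centring turned 9 of the 62 higher genes lower. Equal medians (a factor of 1.02) turned 2 lower genes and moved no median or count beyond its limits. Length centring gave 0.11 in complex II and -0.04 in complex IV, with 4 genes at least 1.2-fold higher and 9 lower, 0 at least 1.5-fold higher and 1 lower. Structural subunits alone left 3 genes at least 1.2-fold and 0 at least 1.5-fold higher. With at least 1 FPKM in both libraries 0 genes were at least 1.5-fold higher, and with a pseudocount of 0.1 there were 4 at least 1.5-fold lower. In fragments the prepubertal shares were 26.6% for complex I, 1.62% for the assembly factors, 6.53% for complex II, 7.68% for complex III, 22.1% for complex IV and 35.5% for complex V. The difference in median between short and long genes, -0.03 at 1000 nt, was -0.03 at 700 nt and 0.01 at 1500 nt. No paired analysis was possible because each stage has 1 column. Ratios of genes with under about 50 fragments are limited by depth.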
